A study of Oryza sativa with 6 samples.

Results

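Peaks of HMG-GFP, the rice chromatin protein OsHMGB1 fused to green fluorescent protein, are described here on the long arms of chromosomes 11 and 12. These are the 2 chromosomes with the sparsest peaks in the series. Members were peaks with a midpoint from 14 to 28 Mb on chromosome 11 or from 14 to 26.5 Mb on chromosome 12, together 26.5 Mb. They numbered 3819 of 60035 peaks on the 12 nuclear chromosomes in replicate 1, 3587 of 56812 in replicate 2 and 2188 of 41474 in replicate 3. Joining peaks of the 3 lists that overlapped by at least 1 bp gave 4058 of 60991 merged regions. The long arms of chromosome 5, from 15 to 28.9 Mb, and of chromosome 7, from 15 to 28.6 Mb, together 27.5 Mb, served as the contrast.

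Chromatin immunoprecipitation sequencing was done on leaf blades of transgenic seedlings carrying HMG-GFP, 28 d old and kept in the HP condition, an abbreviation left unexplained in the labels. The 6 samples were 3 immunoprecipitates (IP) with an antibody against GFP and 3 inputs, all from plants with the fusion, so that plants without HMG-GFP are not among the samples. Each IP replicate has 1 peak list, and the inputs were not analysed by themselves. The labels name neither the promoter nor the number of transgenic lines, and do not say whether replicates came from separate plants, so spreads between replicates may be technical.

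HMGB proteins are abundant non-histone chromatin proteins that bend the DNA they bind and recognise its shape more than its sequence. In rice, chromatin near centromeres is rich in transposable elements, while the outer chromosome arms are rich in genes. Chromosomes 11 and 12 are known for clusters of disease resistance genes of the nucleotide-binding, leucine-rich repeat type and for a recent duplication shared by the ends of their short arms. The lists hold no gene, repeat or centromere annotation and their genome build was not given in the sources used here. Whether the bounds at 14 Mb lie outside the centromeres was therefore taken from the rule, and no gene or sequence is assigned to a peak.

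The arms were picked by peak density, so the values of density and coverage below are descriptions without a test. Every other measure comes from the same lists and was likewise not tested. Regions with a peak of every replicate, called shared regions, numbered 72.1 per Mb on chromosome 12 and 75.9 per Mb on chromosome 11, the lowest and second lowest of the 12 chromosomes. Chromosome 10 followed with 84.5 per Mb, and chromosome 3 had the most, 118 per Mb. Chromosomes 5 and 7 had 96.2 and 93.8 per Mb, and their long arms were denser still. The long arms of chromosomes 11 and 12 held 69.8 shared regions per Mb, against 114 per Mb on the long arms of chromosomes 5 and 7 and 99.8 per Mb on the other 10 chromosomes. The contrast arms were thus richer than the rest of the genome, and values of the other 10 chromosomes are given beside them where they matter.

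Coverage was similar on both sides of the chromosome 11 bounds, while at both bounds of chromosome 12 the inner windows were less covered than the outer ones in replicates 1 and 2. The windows of 500 kb just inside and just outside 14 Mb on chromosome 11 were covered by peaks to 27.4% and 23.5% in replicate 1, 24.8% and 22.0% in replicate 2, and 12.2% and 13.5% in replicate 3. At 28 Mb the inner and outer windows were covered to 27.8% and 26.4%, 28.1% and 28%, and 14.2% and 14.1% in the same replicates. On chromosome 12 the window inside 14 Mb was covered to 23.3%, 19.4% and 7.84% and the window outside to 33.1%, 30.2% and 9.32%. Inside 26.5 Mb the values were 22.0%, 21.8% and 18.6%, and outside 31.9%, 32.5% and 17.4%. The first peak inside 14 Mb on chromosome 11 had folds of 2.999, 2.54 and 1.62 in replicates 1, 2 and 3, and the last one outside had 3.54, 1.80 and 2.24. The fold is the enrichment the authors give for each peak.

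HMG-GFP peaks were fewer, somewhat narrower and farther apart on the long arms of chromosomes 11 and 12 than on those of chromosomes 5 and 7, in each of the 3 replicates. Peaks covered 26.97%, 26.3% and 13.4% of the long arms of chromosomes 11 and 12 in replicates 1, 2 and 3, against 34.5%, 36.0% and 27.3% of the long arms of chromosomes 5 and 7. The means were 22.2% ± 7.69 and 32.6% ± 4.64 (SD, n = 3 each). The covered shares of the 2 pooled pairs of arms did not overlap. The highest value of chromosomes 11 and 12 and the lowest of chromosomes 5 and 7 lay close together, however. Single arms did overlap across replicates, with 27.8% on chromosome 11 in replicate 1 and 25.7% on chromosome 7 in replicate 3. Within a replicate the ratio of the pairs was 0.78, 0.73 and 0.49, and against the other 10 chromosomes it was 0.83, 0.80 and 0.58.

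Peaks numbered 144, 135 and 82.6 per Mb on the long arms of chromosomes 11 and 12, against 173, 166 and 132 per Mb on the long arms of chromosomes 5 and 7. Here the values of the pairs overlapped across replicates, while the ratio within a replicate was below 1 each time, at 0.84, 0.82 and 0.63. The mean peak was 1871, 1946 and 1617 bp wide on chromosomes 11 and 12 and 1999, 2172 and 2069 bp wide on chromosomes 5 and 7. Medians differed by no more than the 200 bp grid of the lists: 1200, 1400 and 1400 bp against 1400, 1400 and 1600 bp. On a log2 scale, the lower number of peaks made up 73.1%, 64.7% and 65.6% of the lower covered length and the lower mean width the rest.

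**Figure D1:**
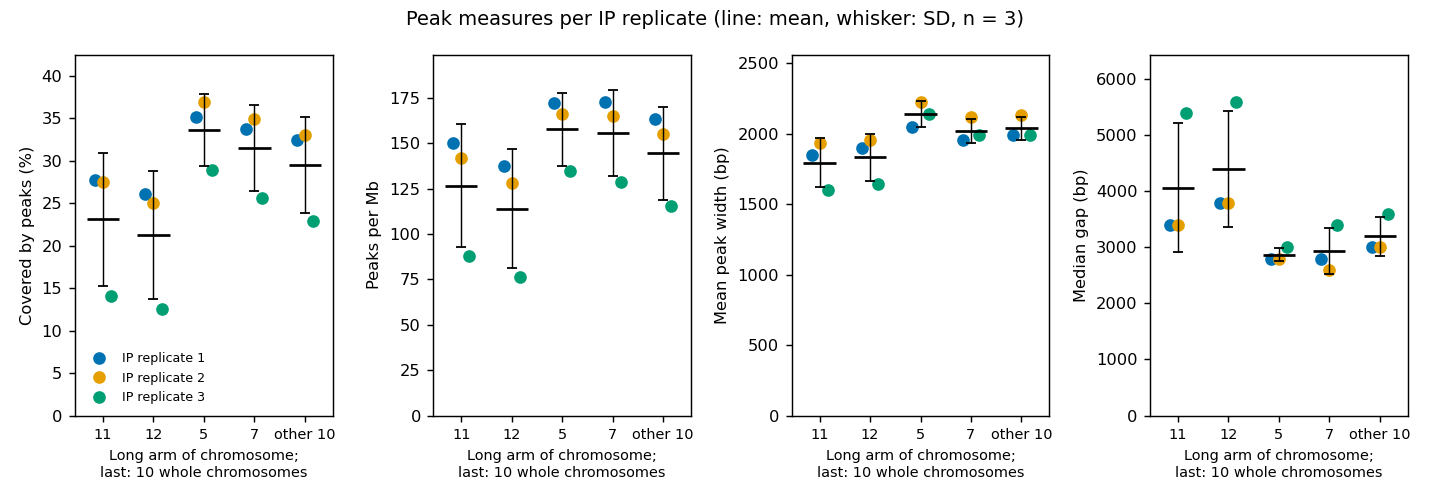
Covered share (%), peaks per Mb, mean peak width (bp) and median gap between neighbouring peaks (bp) on the long arms of chromosomes 11, 12, 5 and 7 and on the other 10 whole chromosomes; points are the 3 IP replicates, lines their mean and whiskers the SD. The long arms of chromosomes 11 and 12 have the lowest covered share and the widest gaps of the 5 groups within each replicate, and replicate 3 lies apart from the others most on these arms.

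Both arms shared this pattern, and chromosome 12 was the sparser. The long arm of chromosome 11 was covered to 27.8%, 27.5% and 14.1% and that of chromosome 12 to 26.1%, 25.1% and 12.6% in replicates 1, 2 and 3. The ratio of chromosome 11 to chromosome 12 was 1.06, 1.10 and 1.12. Peaks per Mb were 150, 142 and 88 on chromosome 11 and 137, 128 and 76.5 on chromosome 12, while median widths were the same in each replicate.

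Sparse peaks were not confined to the long arms of the 2 chromosomes. The long arms of chromosomes 11 and 12 were covered nearly as the rest of these chromosomes was, which reached 28.2%, 27.2% and 15.01% in replicates 1, 2 and 3. The ratio of long arm to rest was 0.96, 0.97 and 0.89. For chromosome 11 alone it was 1.02, 1.04 and 0.95, and for chromosome 12 alone 0.90, 0.89 and 0.83. Only on chromosome 12, of these 2, was the long arm the sparser portion in every replicate.

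The strongest peaks were the ones most thinned out. When each list was split at the quartiles of its own folds, the highest quartile had 25.8, 24.8 and 17.9 peaks per Mb on the long arms of chromosomes 11 and 12 in replicates 1, 2 and 3. On the long arms of chromosomes 5 and 7 it had 51.2, 49.4 and 35.8 per Mb. The ratio of the pooled pairs was 0.505, 0.501 and 0.501, nearly the same number in every replicate, with a mean of 0.502 ± 0.00227 (SD, n = 3). Against the other 10 chromosomes it was 0.604, 0.612 and 0.609. The contrast arms differed, with 55.1, 53.1 and 38.5 per Mb on chromosome 5 and 47.2, 45.7 and 33.0 per Mb on chromosome 7. The ratio thus depends on the arms taken, which its SD over replicates does not show.

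The weakest peaks did not follow this. The lowest quartile had 46.0, 42.6 and 24.5 peaks per Mb on the long arms of chromosomes 11 and 12, against 34.6, 32.5 and 30.5 per Mb on those of chromosomes 5 and 7. The ratio was thus 1.33 in replicate 1 and 1.31 in replicate 2 but 0.80 in replicate 3. The second quartile gave 0.93, 0.94 and 0.62 and the third 0.74, 0.70 and 0.60. Replicates 1 and 2 therefore had more weak and fewer strong peaks on these arms than on those of chromosomes 5 and 7. Replicate 3 had fewer peaks of every strength. Against the other 10 chromosomes the ratio of the lowest quartile was 1.18, 1.14 and 0.87. The rest of chromosomes 11 and 12 was close to the long arms, with 46.8, 42.1 and 26.2 lowest-quartile peaks per Mb.

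**Figure D2:**
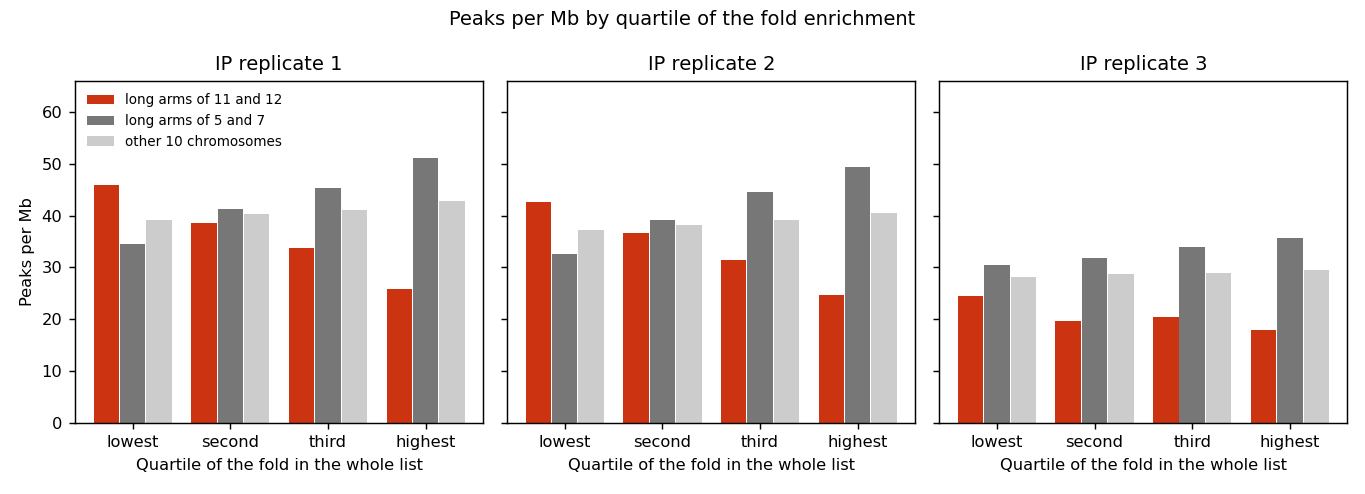
Peaks per Mb in the 4 quartiles of the fold enrichment of each whole list, from lowest to highest, for the 3 IP replicates; bars stand for the long arms of chromosomes 11 and 12, those of chromosomes 5 and 7, and the other 10 chromosomes. In the highest quartile the bars of chromosomes 11 and 12 stand at 25.8, 24.8 and 17.9 per Mb, against 51.2, 49.4 and 35.8 per Mb on chromosomes 5 and 7.

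Over whole chromosomes, 11 and 12 held the lowest and second lowest number of highest-quartile peaks per Mb in every replicate, in either order. The 2 long arms had similar values, 24.9, 25.1 and 17.7 per Mb on chromosome 11 and 26.96, 24.3 and 18.2 per Mb on chromosome 12. The rest of chromosomes 11 and 12 had 25.5, 24.4 and 19.0 per Mb. Of all peaks on the long arms of chromosomes 11 and 12, 17.9%, 18.3% and 21.7% were in the highest quartile.

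Folds over all peaks of the arms show the same shift less sharply. The median fold was 2.62, 2.01 and 1.99 on the long arms of chromosomes 11 and 12, against 3.004, 2.29 and 2.07 on those of chromosomes 5 and 7. The ratio was 0.87, 0.88 and 0.96. A fold of at least 2 was reached by 78.3%, 51.0% and 49.2% of peaks on the long arms of chromosomes 11 and 12, against 87.2%, 65.5% and 55.4% on those of chromosomes 5 and 7. Over all 12 chromosomes the shares were 83.0%, 59.8% and 52.8%. On the rest of chromosomes 11 and 12 the shares were 78.0%, 52.3% and 47.2% and the median folds 2.62, 2.04 and 1.97. Both were close to those of the long arms of these chromosomes. The highest single folds on the long arms of chromosomes 11 and 12 were 8.67, 6.83 and 5.61, against 10.2, 7.27 and 5.57 on those of chromosomes 5 and 7.

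Peaks of like width had lower folds as well, most clearly in replicates 1 and 2. Among peaks of 600 to 1000 bp the median fold was 3.01, 2.27 and 2.12 on the long arms of chromosomes 11 and 12 and 3.40, 2.55 and 2.17 on those of chromosomes 5 and 7. Among peaks of 2200 to 4000 bp it was 2.18, 1.82 and 1.88 and 2.72, 2.13 and 1.96. In peaks of at most 400 bp, the narrowest class, replicate 3 gave 2.22 on chromosomes 11 and 12 and 2.21 on chromosomes 5 and 7.

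Wide peaks were thinned out more than narrow ones, chiefly in replicate 3. The number per Mb of peaks of at most 400 bp was 0.90, 0.81 and 0.80 times that of chromosomes 5 and 7 in replicates 1, 2 and 3. For peaks of 2200 to 4000 bp the ratio was 0.74, 0.66 and 0.52, and for peaks of 4200 to 9800 bp it was 0.76, 0.69 and 0.25. Peaks of 10 kb or more numbered 56, 45 and 1 on the long arms of chromosomes 11 and 12, against 74, 71 and 23 on those of chromosomes 5 and 7. Per Mb these were 2.11, 1.70 and 0.038 against 2.69, 2.58 and 0.84. The rest of chromosomes 11 and 12 was close to their long arms, with 2.03, 1.73 and 0 per Mb. Over all 12 chromosomes there were 2.57, 2.37 and 0.42 per Mb. The widest single peaks measured 20200, 22200 and 10000 bp on chromosomes 11 and 12 and 37200, 34000 and 23200 bp on chromosomes 5 and 7.

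Within each list wider peaks had lower folds, and on chromosomes 11 and 12 somewhat more so. Spearman's rank correlation between width and fold was -0.43, -0.45 and -0.28 on the long arms of chromosomes 11 and 12, against -0.32, -0.34 and -0.16 on those of chromosomes 5 and 7. Peaks of 1 list share a library, so these coefficients carry no p-value.

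On the long arms of chromosomes 11 and 12, neighbouring peaks of a list lay farther apart than on those of chromosomes 5 and 7. The median gap, from the end of a peak to the start of the next, was 3600, 3600 and 5400 bp, against 2800, 2600 and 3200 bp on the long arms of chromosomes 5 and 7. The means of these medians were 4200 ± 1039 and 2867 ± 306 bp (SD, n = 3 each). The ratio within a replicate was 1.29, 1.38 and 1.69, and the 2 sets of pooled medians did not overlap. Single arms met across replicates, at 3400 bp on chromosome 11 in replicate 1 and on chromosome 7 in replicate 3. The rest of chromosomes 11 and 12 had median gaps of 3600, 3800 and 5000 bp, close to those of the long arms. There the ratio of long arms to rest was 1, 0.95 and 1.08.

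The ratio to chromosomes 5 and 7 was larger for long gaps than for the median gap. Gaps of 10 kb or more made up 12.4%, 13.97% and 30.5% of the gaps on the long arms of chromosomes 11 and 12, against 5.48%, 6.19% and 14.3% on those of chromosomes 5 and 7. Over all 12 chromosomes they made up 7.93%, 9.30% and 18.7%. The ratio between the pairs of arms was 2.26, 2.26 and 2.13. The rest of chromosomes 11 and 12 came close to the long arms, with 10.9%, 13.3% and 27.6%, so that long arm over rest was 1.14, 1.05 and 1.10. Such gaps held 27.6%, 31.5% and 63.9% of the sequence of the long arms of chromosomes 11 and 12, and 13.3%, 15.03% and 35.1% of those of chromosomes 5 and 7.

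Gaps of 20 kb or more numbered 70, 89 and 301 on the long arms of chromosomes 11 and 12 and 21, 35 and 147 on those of chromosomes 5 and 7. Per Mb these were 2.64, 3.36 and 11.4 against 0.76, 1.27 and 5.35, with 1.56, 2.32 and 7.82 over all 12 chromosomes. For chromosomes 11 and 12 the ratio of long arms to rest was 1.28, 0.91 and 1.09. In replicate 2 the rest of these chromosomes thus had more such gaps per Mb than the long arms. In replicate 3 gaps of 20 kb or more held 41.8% of the long arm of chromosome 11 and 48.1% of that of chromosome 12. On chromosomes 5 and 7 they held 14.4% and 18.6%. Gaps of 50 kb or more held 25.4% of the long arm of chromosome 12 and 11.2% of that of chromosome 11 in replicate 3, against 1.78% on chromosome 5 and 2.83% on chromosome 7.

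**Figure D3:**
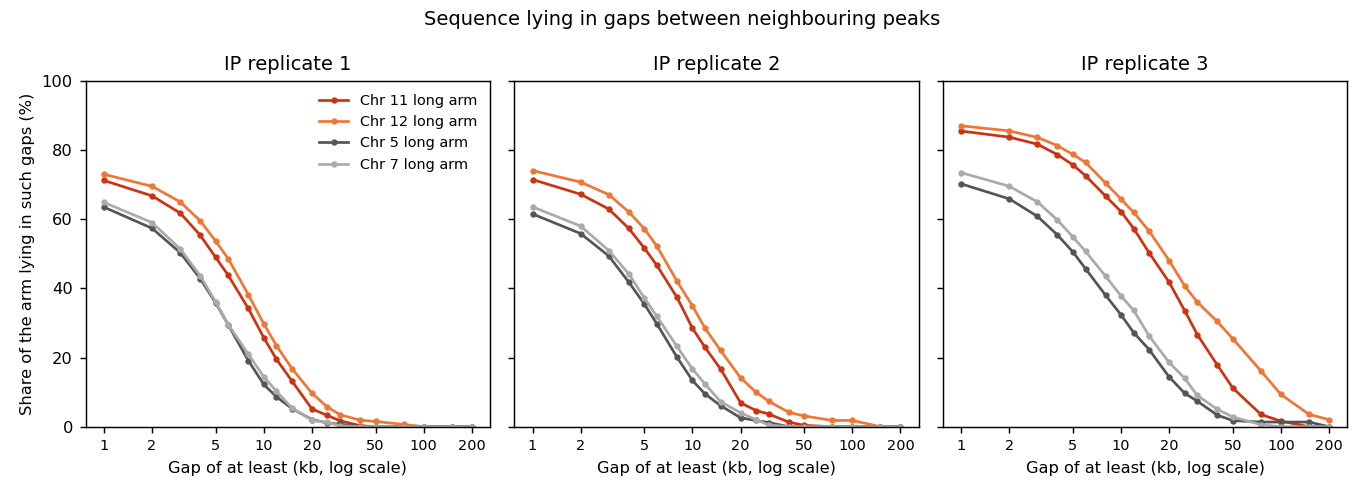
Share of each long arm (%) lying in gaps between neighbouring peaks of at least the length on the x axis (kb, log scale), for the 3 IP replicates. At 20 kb the curves of chromosomes 11 and 12 stand at 5.15% and 9.68% in replicate 1 and at 41.8% and 48.1% in replicate 3, above those of chromosomes 5 and 7 in every replicate.

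The long gaps of replicate 3 were not empty in the other lists. Its 301 gaps of 20 kb or more on the long arms of chromosomes 11 and 12 spanned 11.9 Mb and held 1227 peaks of replicate 1 and 1019 of replicate 2. Only 9 of these gaps held no peak of replicate 1, and 16 held none of replicate 2. Peaks covered 24.9% of the gaps in replicate 1 and 22.1% in replicate 2. Those peaks had low folds, with a median of 2.16 in replicate 1 and 1.63 in replicate 2, against 2.62 and 2.01 over all peaks of the 2 arms.

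The 147 such gaps of chromosomes 5 and 7 were covered to 33.9% by replicate 1 and 30.4% by replicate 2, with median folds of 2.14 and 1.59. Few of these were empty either: 5 held no peak of replicate 1 and 7 held none of replicate 2. The long gaps of replicate 3 made up 44.7% of the long arms of chromosomes 11 and 12 and held 32.1% of their replicate 1 peaks. On chromosomes 5 and 7 they made up 16.5% of the long arms and held 10.4% of the peaks. In both pairs the share of peaks was below the share of sequence.

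Long stretches with no peak in any replicate were also more frequent than on the long arms of chromosomes 5 and 7. On the long arms of chromosomes 11 and 12, 66.9% of the sequence lay under no peak, against 56.0% on those of chromosomes 5 and 7. The rest of chromosomes 11 and 12 was close to their long arms, with 65.3%, and over all 12 chromosomes the share was 60.1%. On the long arms, longer stretches were counted as well. Peak-free stretches of 10 kb or more numbered 350, or 13.2 per Mb, on chromosomes 11 and 12, against 176, or 6.40 per Mb, on chromosomes 5 and 7. They held 19.96% of the sequence of the long arms of chromosomes 11 and 12 and 8.79% of that of chromosomes 5 and 7.

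The longest peak-free stretch of the arms was 79000 bp on chromosome 12 from 20602601 to 20681600. A second one of 59800 bp lay close by, from 20501001 to 20560800, and another of 51000 bp lay from 24277601 to 24328600. The first 2 fell within a gap of replicate 3 of 254400 bp, from 20491401 to 20745800, in which replicate 1 had 11 peaks and replicate 2 had 8. The nearest peaks to the left of the stretch of 79000 bp had folds of 1.65, 1.24 and 1.59 in replicates 1, 2 and 3, and those to the right 1.34, 1.27 and 2.44. In replicate 3 these peaks lay as far as 111200 and 64200 bp away.

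On chromosome 11 the longest peak-free stretches measured 42400 bp (18271801 to 18314200), 34200 bp (18667801 to 18702000) and 34000 bp (15374801 to 15408800). The longest measured 33600 bp on chromosome 5 and 28200 bp on chromosome 7. Peaks beside the stretch of 34200 bp were strong on its left, with folds of 4.97, 2.88 and 2.38. A long peak-free stretch was thus not always flanked by weak peaks.

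Windows of 500 kb show low coverage along most of both arms. The 53 windows of the long arms of chromosomes 11 and 12 were covered to 17.8% to 39.8% in replicate 1 (median 26.8%), 17.2% to 39.4% in replicate 2 (26.2%) and 4.88% to 27.2% in replicate 3 (13.1%). The 54 full windows of the long arms of chromosomes 5 and 7 were covered to 20.04% to 44.5% (34.3%), 19.2% to 47.2% (36.5%) and 10.48% to 41.7% (28.7%). The ranges overlapped widely in every replicate. Averaged over replicates, all 53 windows lay below the median window of chromosomes 5 and 7, 33.6%. Over all 12 chromosomes 555 of 741 windows did so. In single replicates 50, 50 and 53 of the 53 windows lay below that replicate's median, where 504, 536 and 518 of the 741 did.

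Of the 53 windows, 47 (88.7%) lay below the lower quartile of the windows of chromosomes 5 and 7, 27.7%. Over all 12 chromosomes 49.1% of the windows did so, since the contrast arms are well covered. In single replicates the counts were 43, 42 and 46 of 53, where 43.9%, 41.8% and 49.0% of all windows did. The longest unbroken runs of low windows were 8 Mb on chromosome 12, from 17500001 to 25500000, and 6 Mb on chromosome 11, from 20500001 to 26500000. On chromosomes 5 and 7 the longest runs were 3 Mb each, at or near the centromere-side bounds.

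**Figure D4:**
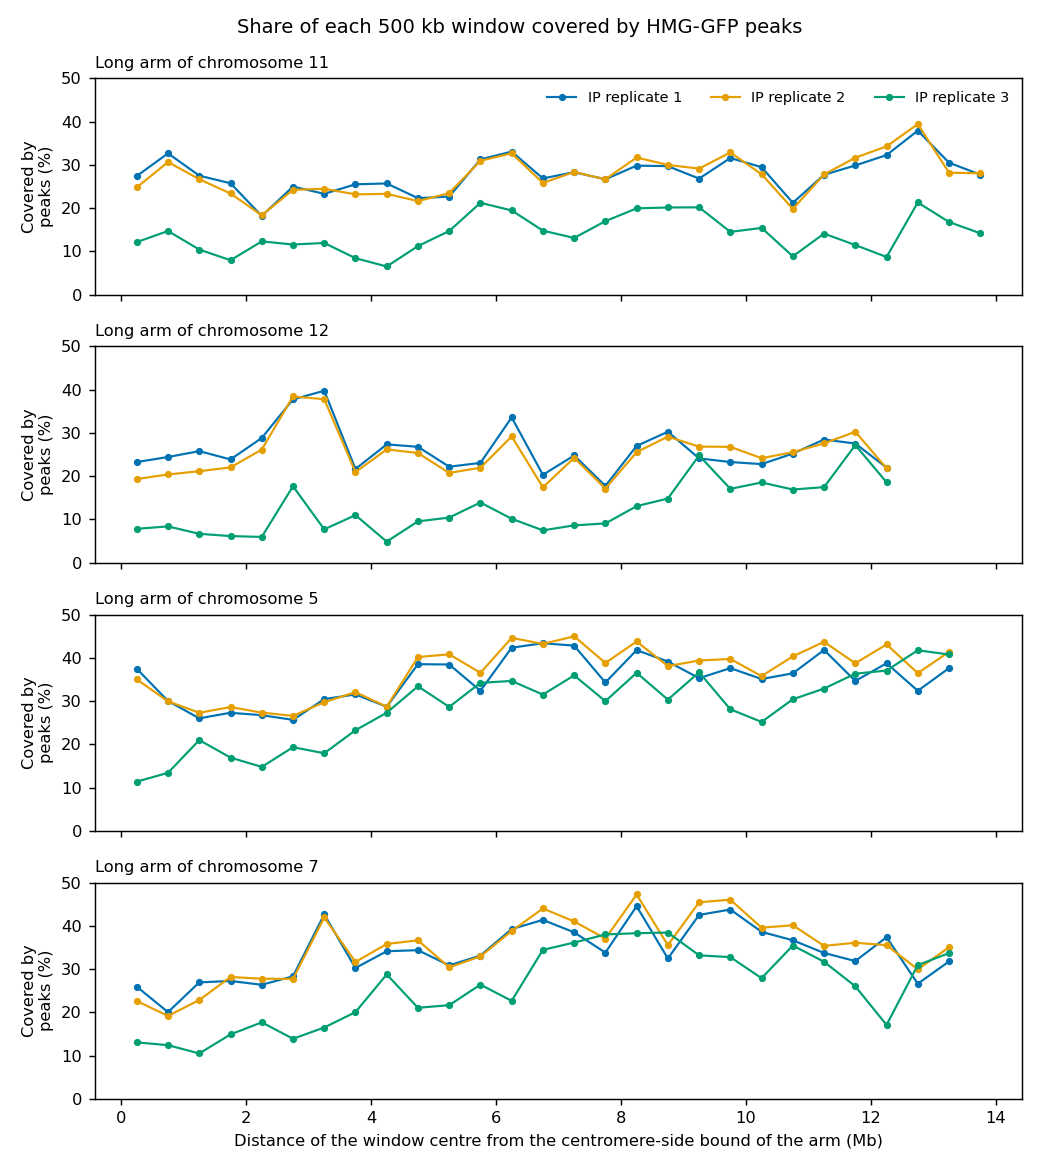
Share (%) of each 500 kb window covered by peaks, against the distance of the window from the centromere-side bound of the arm (Mb), for the long arms of chromosomes 11, 12, 5 and 7; lines are the 3 IP replicates. On chromosomes 11 and 12 replicates 1 and 2 stay between 17.2% and 39.8% along the arm. Replicate 3 stays below both in 52 of 53 windows there and in 45 of 54 windows on chromosomes 5 and 7. Over all 12 chromosomes it does so in 604 of 741 windows. On chromosomes 5 and 7 coverage is low near the bound and higher beyond it.

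The 2 pairs of arms differed less near the centromere than farther out, and in the centromere-side segments they were closest in replicates 1 and 2. With each arm cut into 4 segments of equal length, the centromere-side segments of chromosomes 11 and 12 were covered to 26.9%, 25.1% and 10.3% and those of chromosomes 5 and 7 to 28.4%, 28.0% and 15.2%. The ratio there was 0.95, 0.90 and 0.68. In the other 3 segments it was 0.74, 0.69 and 0.46, with 27%, 26.8% and 14.4% on chromosomes 11 and 12 and 36.5%, 38.7% and 31.3% on chromosomes 5 and 7. These segments were compared after the profile along the arms had been seen.

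Along chromosome 11 coverage was higher in the outer segments than at the centromere side by a few percentage points. From the centromere-side segment outward, replicate 1 covered 25.7%, 26.8%, 28.93% and 29.6%, replicate 2 covered 24.7%, 25.9%, 29.5% and 29.9%, and replicate 3 covered 11.6%, 13.8%, 17.2% and 13.6%. On chromosome 5 the same segments were covered to 29.0%, 36.3%, 38.2% and 37.2% in replicate 1 and to 16.2%, 30.6%, 31.7% and 37.1% in replicate 3.

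In replicates 1 and 2 the coverage of chromosome 12 stayed within a few percentage points along the arm, while the number and fold of its peaks changed. Outward from the centromere side, replicate 1 covered 28.2%, 26%, 25.1% and 25.02% of the 4 segments. Its peaks meanwhile numbered 129, 131, 135 and 155 per Mb, and their median fold was 2.35, 2.52, 2.62 and 3.03. Replicate 2 had a like course, with 25.5%, 24.5%, 23.8% and 26.4% covered, 110, 123.2, 127 and 152 peaks per Mb and median folds of 1.75, 1.97, 1.96 and 2.24. Peaks of the highest quartile of folds numbered 14.4, 22.7, 28.2 and 42.6 per Mb in replicate 1 and 13.4, 20.2, 27.2 and 36.5 per Mb in replicate 2.

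In replicate 3, coverage itself changed on chromosome 12, to 8.80%, 9.80%, 12.0% and 19.7% from the centromere side outward. Its peaks numbered 53.4, 64.0, 73.0 and 116 per Mb, while the median fold stayed at 1.95, 2.02, 1.98 and 2.04. Its highest-quartile peaks numbered 14.1, 17.3, 18.2 and 23.04 per Mb. Shared regions followed, with 43.5, 56.6, 62.4 and 93.1 per Mb. The outermost segment of chromosome 12 had more shared regions per Mb than any segment of chromosome 11, where the third was highest with 87.7 per Mb.

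On chromosome 11 the best covered window had more peaks than the least covered one, 87, 88 and 59 against 61, 63 and 42. On chromosome 12 the best covered windows had wider peaks than the least covered ones in replicates 1 and 2. Their numbers of peaks there were close to those of the lowest window. The lowest window of chromosome 12, from 21500001 to 22000000, was covered to 17.8%, 17.2% and 9.08% in replicates 1, 2 and 3 by 60, 50 and 28 peaks with median widths of 1200, 1400 and 1400 bp. The next lowest, from 20500001 to 21000000, holds the peak-free stretch of 79000 bp and was covered to 20.3%, 17.4% and 7.48% by 44, 44 and 23 peaks with median widths of 1400, 1200 and 1400 bp. On chromosome 11 the lowest was from 16000001 to 16500000, with 18.2%, 18.4% and 12.3% under 61, 63 and 42 peaks. The next lowest on chromosome 11, from 24500001 to 25000000, was covered to 21.2%, 19.8% and 8.88%.

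The windows with the highest mean coverage of chromosome 12 were neighbours. The one from 16500001 to 17000000 was covered to 37.8%, 38.4% and 17.7% by 62, 57 and 38 peaks with median widths of 1700, 2000 and 2000 bp. The one from 17000001 to 17500000 was covered to 39.8% and 37.8% in replicates 1 and 2 but to 7.72% in replicate 3. Its peaks were few and wide, 59 and 56 with a median width of 2200 bp in replicates 1 and 2, and 21 of 1400 bp in replicate 3. On chromosome 11 the highest window, from 26500001 to 27000000, was covered to 37.9%, 39.4% and 21.3%, and the next, from 20000001 to 20500000, to 33.1%, 32.7% and 19.5%.

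Replicate 3 fell behind the other lists on these arms more than on the long arms of chromosomes 5 and 7. The rest of chromosomes 11 and 12 was close to the long arms in this, with 28.2% covered in replicate 1 and 15.01% in replicate 3. Its covered share was below 0.5 times that of replicate 1 in 27 of 53 windows of the long arms of chromosomes 11 and 12, in 6 of 54 windows of those of chromosomes 5 and 7 and in 228 of 741 windows of all 12 chromosomes. The ratio of replicate 3 to replicate 1 had a median of 0.49 over the windows of chromosomes 11 and 12, against 0.78 over those of chromosomes 5 and 7 and 0.67 over all windows. It was lowest on chromosome 12 from 18000001 to 18500000, where the replicates covered 27.4%, 26.2% and 4.88%. The highest ratio on the 2 arms was 1.03, on chromosome 12 from 23000001 to 23500000, with 24.1%, 26.8% and 24.8% covered.

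Replicates 1 and 2 covered the windows of the arms alike, and replicate 3 followed them less closely, as it did over the whole genome. Across the 53 windows the covered share had a Pearson r of 0.93 for replicates 1 and 2, 0.46 for replicates 2 and 3 and 0.24 for replicates 1 and 3. Spearman rho was 0.91, 0.52 and 0.27 for the same pairs. Over all 741 windows of the 12 chromosomes r was 0.93, 0.59 and 0.32. On chromosome 12 alone, with 25 windows, r between replicates 1 and 3 was 0.020 (rho -0.040), against 0.52 (0.50) over the 28 windows of chromosome 11. The covered share of replicate 3 against the mean fold of replicate 1 peaks in a window had r of 0.62 and rho of 0.61 over the 53 windows. This r was 0.74 on chromosome 12 but 0.40 on chromosome 11, against 0.82 on chromosomes 5 and 7 and 0.89 over all 741 windows. The number of peaks per window was alike, with r of 0.91, 0.82 and 0.73 for the pairs 1 and 2, 2 and 3, and 1 and 3. Neighbouring windows share a library and a chromosome, and no p-value is given. The list of replicate 3 is also the shortest over the whole genome, and the part of that in these values was not tested.

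Fewer regions of the arms were held by every replicate than on the long arms of chromosomes 5 and 7. Of the 4058 merged regions on the long arms of chromosomes 11 and 12, 1849 (45.6%) were shared by all 3 replicates, where 58.7% of the regions of all 12 chromosomes were. On the long arms of chromosomes 5 and 7, 3127 of 4732 (66.1%) were shared. The rest of chromosomes 11 and 12 came closer to their long arms, with 2338 of 4714 (49.6%). The share was 47.6% on the long arm of chromosome 11 and 43.2% on that of chromosome 12. Each was below the 68.1% of chromosome 5 and the 64.1% of chromosome 7. With replicate 3 left out, 79.2% of the regions of chromosomes 11 and 12 were held by both other replicates, against 87.2% on chromosomes 5 and 7. When peaks had to cover at least 50% of each other, 27.6% of the groups of joined peaks were shared on chromosomes 11 and 12 and 37.8% on chromosomes 5 and 7.

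The difference lay mostly in regions held by replicates 1 and 2 without replicate 3. These made up 30.8% of the regions on the long arms of chromosomes 11 and 12, against 16.9% on those of chromosomes 5 and 7. On the rest of chromosomes 11 and 12 they made up 27.3%, and replicate 3 also had 64.5% of the regions held by replicates 1 and 2. Of the 3097 regions held by replicates 1 and 2 on the long arms of chromosomes 11 and 12, replicate 3 also had 59.7%. It had 72.7% over all 12 chromosomes and 79.6% on the long arms of chromosomes 5 and 7. On the long arms of chromosomes 11 and 12 the regions that replicate 3 also had were stronger. Their median of the highest fold was 3.17 in replicate 1 and 2.39 in replicate 2. Those it lacked had 2.27 and 1.66.

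The same gap in folds stood on chromosomes 5 and 7, with 3.38 and 2.53 against 2.34 and 1.71. Regions of replicate 1 alone made up 11.9% on chromosomes 11 and 12 and 6.17% on chromosomes 5 and 7. Regions of replicate 3 alone made up 3.60% and 5.09%.

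**Figure D5:**
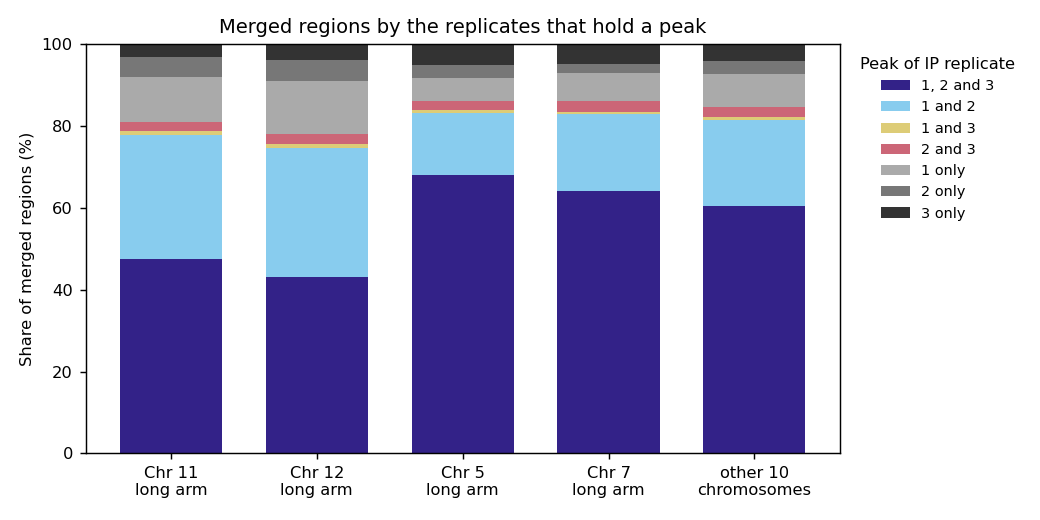
Share (%) of merged regions by the IP replicates that hold a peak in them, for the long arms of chromosomes 11, 12, 5 and 7 and the other 10 chromosomes. Shared regions make up 47.6% and 43.2% on chromosomes 11 and 12, against 68.1% and 64.1% on chromosomes 5 and 7, and the class of replicates 1 and 2 alone is larger on chromosomes 11 and 12.

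Replicate 3 peaks, though few, mostly stood where the others had peaks. On the long arms of chromosomes 11 and 12, 88.7% of replicate 3 peaks overlapped a replicate 1 peak and 91.5% a replicate 2 peak, against 89.9% and 92.5% on those of chromosomes 5 and 7. In the other direction 52.4% of replicate 1 peaks and 57.1% of replicate 2 peaks on chromosomes 11 and 12 were met by replicate 3, against 74.9% and 77.9% on chromosomes 5 and 7. Bases under peaks of all 3 replicates made up 9.36% of the long arms of chromosomes 11 and 12, against 19.3% of those of chromosomes 5 and 7. Bases under exactly 2 lists were nearly as common on both, 14.9% and 15.2%.

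Shared regions of the long arms of chromosomes 11 and 12 were slightly narrower and weaker than those of chromosomes 5 and 7, but not than those of the rest of chromosomes 11 and 12. On the long arms of chromosomes 11 and 12 the median width was 1800 bp, against 2000 bp on the long arms of chromosomes 5 and 7 and over all 12 chromosomes. A single peak from each replicate made up 88.2% of them, against 83.4% on chromosomes 5 and 7. Their median folds on the long arms of chromosomes 11 and 12 were 3.17, 2.39 and 2.02 in replicates 1, 2 and 3, against 3.38, 2.53 and 2.104 on chromosomes 5 and 7. The rest of chromosomes 11 and 12 had a median width of 1800 bp and median folds of 3.07, 2.32 and 2.0002. A fold of at least 2 in every replicate was reached by 823 of the 1849 shared regions (44.5%), where 49.9% did so over all 12 chromosomes, and by 53.3% on chromosomes 5 and 7. Folds descended in the order of replicates 1, 2 and 3 in 67.3% of them, where 69.8% of all shared regions had that order. Across the 1849 regions, rho of the fold was 0.64 for replicates 1 and 2, 0.53 for replicates 2 and 3 and 0.40 for replicates 1 and 3.

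In median fold, the shared regions that ranked highest were 600 to 1400 bp wide, apart from 1 of 3400 bp. On chromosome 12 the first was the region from 26010001 to 26011000, with folds of 7.28, 6.19 and 3.42 in replicates 1, 2 and 3. These lie at percentiles of 99.6, 99.9 and 98.7 of the folds of each list. The next were at 26079401 to 26080000, with folds of 7.27, 5.30 and 2.68, and at 20015801 to 20016600, with 7.44, 5.21 and 3.55. The fourth, at 24942801 to 24946200, had 5.73, 5.12 and 2.28, which in replicate 3 does not reach the upper quartile of the list, 2.37. Of these 4 regions, 3 lay in the outermost segment of the arm, where strong peaks were most frequent.

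On chromosome 11 the 4 regions with the highest median fold were spread along the arm. They were at 26536601 to 26538000 (folds 6.25, 5.17 and 2.91), 23073801 to 23074400 (7.06, 5.10 and 3.09), 22522401 to 22523000 (5.47, 5.07 and 2.99) and 17060801 to 17061800 (5.02, 5.47 and 3.02). All 4 were above the upper quartile of each list. The region at 26536601 lies in the best covered window of that arm, described above.

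In the widest shared regions the peaks of replicate 3 covered less than those of replicates 1 and 2. These regions were picked by merged width, and the widest replicate 3 peak on these arms measured 10000 bp. The lower cover of replicate 3 thus came largely with the choice and is no separate result. The widest on chromosome 12 was 17600 bp, from 17085801 to 17103400, where peaks covered 13600 bp in replicate 1, 17600 bp in replicate 2 and 2400 bp in replicate 3. Its highest folds were 2.59, 1.42 and 1.87. The others on chromosome 12 were 16200 bp at 17042401 to 17058600 and 15800 bp at 17449601 to 17465400. In the last of these, peaks of replicate 3 covered 7600 bp, against 800 bp in the one before it. All 3 lay in the window from 17000001 to 17500000, the one best covered by replicate 1 on that arm and among the least covered by replicate 3. On chromosome 11 the widest was 17200 bp, from 22391401 to 22408600, with peaks covering 17200, 15200 and 3200 bp and folds of 2.398, 1.68 and 1.95. The others measured 16600 bp, from 24017001 to 24033600, and 15600 bp, from 22826001 to 22841600. In the last of these, replicate 3 had its highest fold of the 6 wide regions, 3.27, in peaks that covered 2600 bp.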

How the data were processed

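Peaks of 3 IP samples were analysed; the 3 inputs were not analysed by themselves. MACS2 2.1.2, Bowtie2 2.4.1, Trimmomatic 0.33 and bcl2fastq 2.19 appear in the submitters' processing notes, without roles. The peak caller, the genome build and the use of the inputs were not given in the sources used here. The fold enrichment deposited by the authors is a linear ratio per peak, whose denominator and scale across lists are not stated. Stretches were therefore compared within a list. The cutoff of 2 in every replicate, the order of folds over replicates and the ranking by median fold did set lists side by side. Their scales may differ, as the median fold over all 12 chromosomes was 2.84, 2.17 and 2.03 in replicates 1, 2 and 3. Each peak also has a p-value and an FDR deposited by the authors, and the FDR is at most 1e-05. The deposited pileup is a constant times the fold in each list, and was treated as a ratio and not used. All starts and widths are multiples of 200 bp and gaps are at least 800 bp, so spacing below that is not resolved. Read depth is unknown. Starts are printed counting from 1.

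Peaks were assigned by midpoint and coverage was cut at the bounds of each arm. Only full windows were used. The value of a merged region is the highest fold of a replicate's peaks in it. No test was made, because the arms were chosen by peak density in these lists and every measure comes from them. The arms, measures and rules were chosen with earlier results of these data known. Named were, per arm, the 4 shared regions of highest median fold, the 3 widest, the 3 longest peak-free stretches and the 2 windows with the highest and the 2 with the lowest mean coverage. The window ratios, the longest gaps, the segments and the classes by fold and width were added later. The interval counts were tested on simulated data. The tools were matplotlib 3.10.9, scipy 1.17.1, pandas 2.3.3, numpy 2.4.6 and Python 3.11.15. Alternatives were a fold of at least 2, a -log10 FDR of at least 20, lists of equal length, bounds 1 Mb inward, single arms, other contrasts, a reciprocal overlap of 50%, other window sizes and leaving out each replicate.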

Additional observations from a re-analysis of the deposited data

How the results depend on the processing

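The coverage, number, width, gap and fold ratios of the long arms of chromosomes 11 and 12 to those of chromosomes 5 and 7, averages of 0.67, 0.76, 0.87, 1.45 and 0.90 over the replicates, kept the direction of the average under every alternative run. With lists of equal length the mean width ratio was 1.003 in replicate 1 alone, so narrower peaks were not seen in every replicate there. Leaving out each replicate gave 0.61 to 0.76, 0.72 to 0.83, 0.84 to 0.92, 1.34 to 1.54 and 0.87 to 0.92. Restricting the lists to folds of 2 or more gave a coverage ratio of 0.51, a mean width ratio of 0.78 and a median gap ratio of 1.66. Lists of equal length gave a median gap ratio of 1.67. The share of shared regions, 45.6%, was 36.7% with a -log10 FDR of at least 20 (59.0% on chromosomes 5 and 7), 47.7% with lists of equal length (64.3%) and 27.6% with a reciprocal overlap of 50% (37.8%). It was 47.8% to 79.2% without 1 replicate, where only 2 lists have to meet. The share of low windows, 88.7%, was 74.5% with windows of 250 kb, 96.2% with windows of 1000 kb and 79.2% to 90.6% without 1 replicate. Without the centromere-side segment of each arm, an alternative chosen after seeing the data, the coverage ratio was 0.63. The causes of these shifts were not tested. No paired analysis was possible because the replicate numbers pair IP samples with inputs, for which no values were analysed here, and the results come from no test. The ratios of the arms are each taken within a replicate. Read depth is unknown, so a stretch without a peak is one where no peak was called.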
